A study of Mus musculus with 10 samples.

Results

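The WT-only H3K4me3 islands described here are places on the autosomes where H3K4me3 was called in wild-type mouse embryonic stem cells, where it was not called after loss of BAF250a, and where H3K27me3 was called in neither. They numbered 1153 of the 28365 H3K4me3 islands in the WT library, and of 84243 islands in all 4 lists of the series. An island is a stretch of enriched 200 bp windows. Members were selected on the deposited island calls: a WT H3K4me3 island was taken if it shared not 1 bp with any island of the KO H3K4me3 list or of either H3K27me3 list. The absence of a KO call is therefore what chose them and is not a result.

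BAF250a is encoded by Arid1a and is a subunit of the BAF (SWI/SNF) complex, which moves and evicts nucleosomes. H3K4me3 marks the first nucleosomes of active and poised promoters, above all those with CpG islands, and spreads over a wider domain at strongly active genes. H3K27me3 is deposited by Polycomb repressive complex 2 and, in stem cells, often lies over the promoters of developmental regulators together with H3K4me3. The islands below were called for H3K4me3 and not for H3K27me3, which does not show that H3K27me3 was absent from them.

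Both genotypes were embryonic stem cells of mixed 129/C57BL/6 background, grown with LIF on feeder fibroblasts, and both were treated for 36 hours from 4 hours after passage. The cells labelled WT received ethanol. The cells labelled BAF250a Knockout (KO) received 1 µM 4-OH tamoxifen, so loss of BAF250a and exposure to the drug coincide and cannot be told apart. The labels do not name the allele, the recombinase or a clone, and the share of feeder chromatin in each library was not tested. There was 1 library for each genotype and mark, so no difference between WT and KO could be set against a spread between replicates, and none was tested. The WT H3K4me3 list held 9565481 ChIP reads and the KO list 13512350, over 101.4 and 147.5 Mb of islands. Reads outside islands are not counted in the lists, so a member has a read count in WT and no value in KO.

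Of the 23828 autosomal WT H3K4me3 islands without H3K27me3, the 1153 members were 4.84%, and the other 22675 overlapped a KO island (the kept islands). Members were small. Their median was 34 ChIP reads (95% rank-based interval 34 to 35), with a lower quartile of 29, an upper quartile of 44 and a range of 15 to 200. The kept islands had a median of 146 reads (141 to 151). The median width was 1000 bp (1000 to 1200) for members, with a range of 200 to 4200 bp, and 2600 bp (2400 to 2600) for kept islands. Together the members held 44596 ChIP reads over 1.34 Mb, which was 0.466% of the ChIP reads in WT H3K4me3 islands. Their median density of 33 ChIP reads per kb compares with 67 per kb in kept islands.

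The WT-only islands with most reads lay on chromosomes 8, 4, 10, 1 and 6 and stood apart from other H3K4me3. Positions are in mouse build mm9 and no gene is assigned to them. The fold over input, deposited by the authors, is the ratio of ChIP to input reads scaled for library depth, and its 95% interval here covers counting error in both reads. On chromosome 8, 97499601 to 97502200 held 200 ChIP reads and 57 input reads, a fold of 1.97 (1.46 to 2.70), with the nearest KO H3K4me3 island 53.8 kb away. On chromosome 4, 118198801 to 118201600 held 179 ChIP and 50 input reads, a fold of 2.01 (1.46 to 2.81), between WT islands that were both called in KO. The island on chromosome 10 was the most enriched of the 5.

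That island, chromosome 10, 40220601 to 40222800, held 148 ChIP reads against 16 input reads, a fold of 5.20 (3.10 to 9.33), and lay 33 kb from a KO island. On chromosome 1, 64348801 to 64352600 held 147 ChIP and 52 input reads, a fold of 1.59 (1.15 to 2.22), 75.2 kb from a KO island. On chromosome 6, 31587001 to 31589600 also held 147 ChIP reads, with 58 input reads and a fold of 1.42 (1.04 to 1.97), 71.4 kb from a KO island. Thus 4 of the 5 were at most 2.01-fold over input. Input in the islands of chromosomes 8 and 6 was 21.9 and 22.3 reads per kb, against a median of 7.5 for all members. Kept islands of 100 to 200 reads had a median of 15.

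The 15 members with 100 or more reads, the 5 above among them, had folds of 1.22 to 5.20, and 7 of them reached 2. None lay within 1 kb of a KO H3K4me3 island, and 12 lay more than 5 kb from one. Among kept islands, 13112 of 22675 (57.8%) had 100 or more reads.

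**Figure D1:**
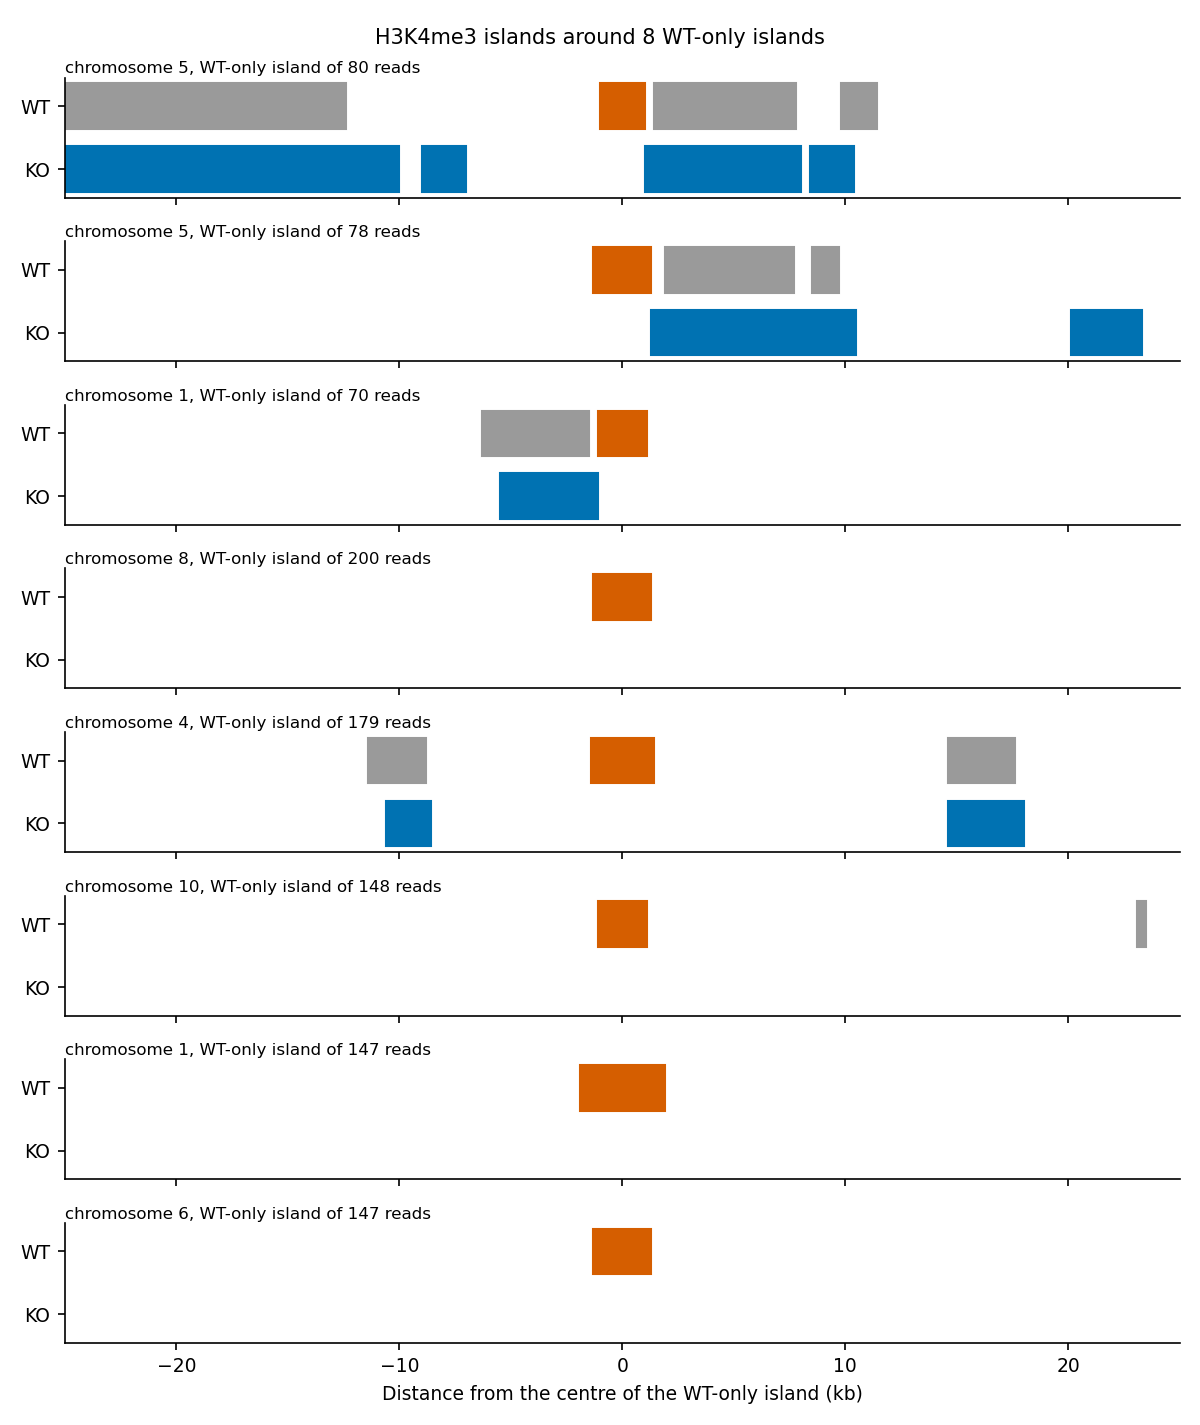
H3K4me3 islands in WT (upper row of each panel) and KO (lower row) around 8 WT-only islands (orange), as distance from the centre of that island in kb; other WT islands are grey and KO islands blue. In the upper 3 panels the WT-only island directly adjoins a KO island, and in the lower 5, which have most reads, the nearest KO island is 7.2 to 75.2 kb away.

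Many members instead lay beside larger H3K4me3 domains that were called in both genotypes. Of the 1153, 541 (46.9%, 95% exact interval 44.0 to 49.8%) lay within 1 kb of a KO H3K4me3 island and 840 (72.9%, 70.2 to 75.4%) within 5 kb. These values depend on the length of the KO list: cut to as many islands with most reads as the WT list holds, it gave 2682 members, 27.4% of them within 1 kb and 47.2% within 5 kb. In the full list, 89 members directly adjoined a KO island. The KO islands next to the 541 were large, with medians of 725 ChIP reads (667 to 803), 6200 bp (5800 to 6400) and 7.70-fold over input (7.24 to 8.02). Over all 39509 autosomal KO H3K4me3 islands the medians were 102 reads, 2000 bp and 3.51-fold. Over the 20266 without H3K27me3 that overlapped a WT island, they were 281.5 reads, 3800 bp and 5.22-fold. For 487 of the 541 the neighbouring KO island overlapped a WT island too, so the domain beside the member was marked in both.

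The 3 adjoining members with most reads show this arrangement. On chromosome 5, 77398201 to 77400200 held 80 ChIP and 14 input reads in WT, a fold of 3.21 (1.81 to 6.14), and ended where a KO island of 7 kb and 1192 reads began. The same KO island overlapped a WT island of 857 reads, which lay 400 bp from the member. Also on chromosome 5, 23665201 to 23667800 held 78 ChIP and 12 input reads, a fold of 3.65 (1.98 to 7.37), beside a KO island of 9.2 kb and 895 reads. On chromosome 1, 129769201 to 129771400 held 70 ChIP and 5 input reads, a fold of 7.87 with a lower limit of 3.22, beside a KO island of 4.4 kb and 529 reads.

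Just outside the rule were WT islands that overlapped the KO list by 200 bp, the least that the 200 bp grid allows. The 3 richest in reads were chromosome 10, 127511601 to 127515400 (107 reads, 2.23-fold, 1.45 to 3.54), chromosome 15, 34173401 to 34176400 (90 reads, 1.53-fold, 1.02 to 2.36), and chromosome 1, 4780201 to 4782400 (73 reads, 10.3-fold, 3.84 to 38.7). There were 204 such islands, of which 71 were themselves 200 bp wide and so could lie anywhere in a KO island. The other 133 had medians of 36 reads (32 to 38), 1200 bp (1000 to 1200) and 2.60-fold (2.23 to 3.00). The 89 members that adjoined a KO island had 36 reads (33 to 39), 1200 bp (1000 to 1200) and 3.00-fold (2.44 to 3.65). Where the neighbouring domain was marked in both genotypes, its KO edge reached further toward the member than its WT edge in 290 of 487 cases, stopped short in 88 and was equal in 109. At the opposite edge the counts were 230, 176 and 81. WT islands lie at least 400 bp apart by the way they were joined, so a KO edge nearer than that to a member had to reach further. This fixed the outcome for the 155 cases within 200 bp of a KO island, where all 155 reached further. At the opposite edge of those 155 the counts were 78, 53 and 24. The 2 edges cannot be compared freely, and the higher count toward the member is not a result.

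Many members also lay close to other islands of the WT list, a distance that does not use the KO list. The nearest other WT H3K4me3 island was within 1 kb for 488 members (42.3%, 39.5 to 45.2%) and at the minimum distance of 400 bp for 233. To compare islands of like size, islands under 50 reads were taken, of which 955 were members and 5087 were kept. Within 1 kb of another WT island lay 43.1% of these members (40.0 to 46.4%) and 32.1% of these kept islands (30.8 to 33.4%), and within 5 kb 71.7% and 44.9%. At the minimum distance of 400 bp the classes were alike, with 20.7% of these members (18.2 to 23.4%) and 20.6% of these kept islands (19.5 to 21.7%).

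Small WT islands were grouped by their distance from other WT islands and by the KO calls over them. Of 2045 WT islands under 50 reads within 1 kb of another WT island, 1400 (68.5%, 66.4 to 70.5%) were covered by a KO island that also covered another WT island, 233 (11.4%) had a KO island to themselves, and 412 (20.1%, 18.4 to 22.0%) were WT-only. Of 925 at 1 to 5 kb, 214 (23.1%) were joined, 438 (47.4%) had their own KO island and 273 (29.5%, 26.6 to 32.6%) were WT-only. Of 3072 beyond 5 kb, 19 (0.618%) were joined, 2783 (90.6%) had their own and 270 (8.79%, 7.81 to 9.85%) were WT-only. A KO island that joins WT islands must span the gap between them, so the joined share falls with distance in part by construction. The share with a KO island of its own is bound to that fall. WT-only calls were most frequent at 1 to 5 kb and least frequent beyond 5 kb, with intervals that did not overlap. These intervals treat islands as independent draws and cover no spread between libraries.

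**Figure D2:**
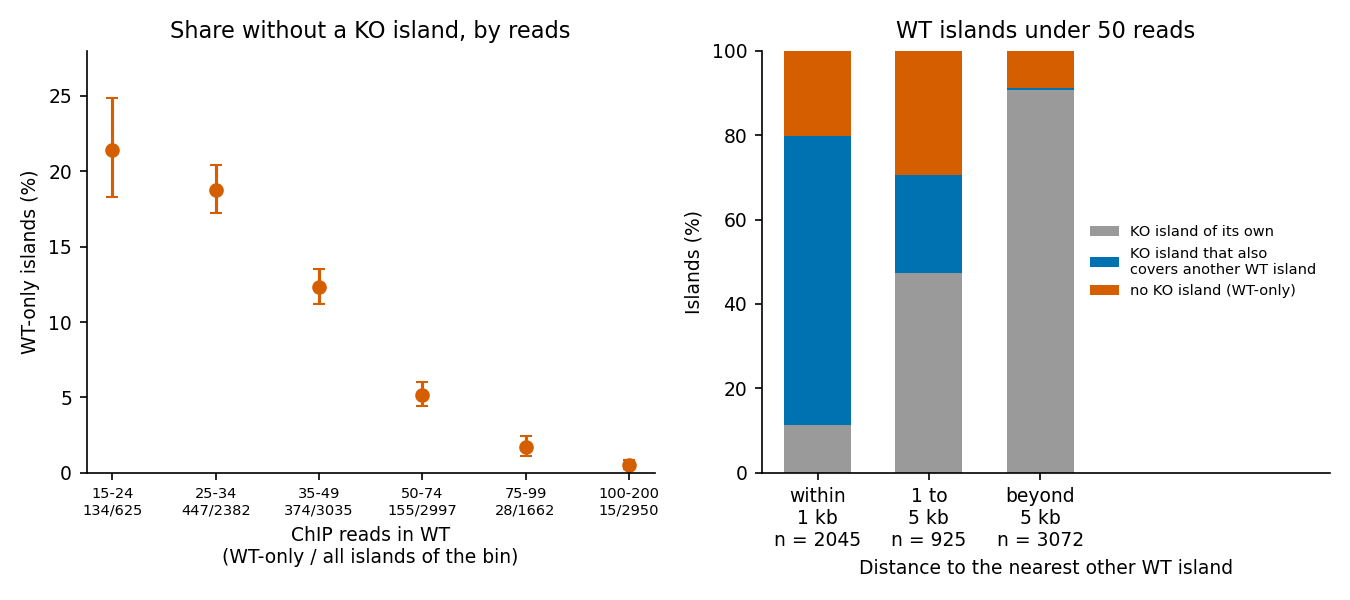
Left, share of autosomal WT H3K4me3 islands without H3K27me3 that had no KO island, by ChIP reads in WT, with 95% exact intervals; it falls from 21.4% at 15 to 24 reads to 0.508% at 100 to 200. Right, islands under 50 reads by distance to the nearest other WT island, as shares that had a KO island of their own, were covered by a KO island that also covered another WT island, or were WT-only. A KO island that covers both must span the gap between them, so that share falls with distance in part by construction.

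Among members, enrichment went with the distance to the nearest KO island. Members within 200 bp of a KO island had a median fold over input of 3.21 (2.97 to 3.61, n = 167) and those at more than 200 bp to 1 kb 2.94 (2.72 to 3.26, n = 374). The median was 2.47 (2.25 to 2.81, n = 299) at more than 1 to 5 kb, 1.93 (1.85 to 2.08, n = 219) at more than 5 to 50 kb and 2.02 (1.85 to 2.25, n = 94) beyond 50 kb. Input reads per kb moved the other way, from 5.56 (5.00 to 6.25) within 200 bp to 10 (9.00 to 11.2) beyond 50 kb. ChIP reads per kb were also lowest close by, at 31.1 (30.0 to 32.2), and 40 (38.6 to 42.5) beyond 50 kb. The higher fold of members close to a KO island thus went with sparser input and not with denser ChIP reads.

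The same pattern held within narrow ranges of read number. Among members with 15 to 34 reads the median fold was 3.37 within 1 kb and 2.18 beyond 5 kb, with 5.83 and 10 input reads per kb. Among those with 35 to 49 reads it was 2.81 and 1.95, and among those with 50 to 200 reads 2.85 and 1.74.

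Both classes could be compared by distance to other WT islands. Under 50 reads, members had a median fold of 3.14 (2.90 to 3.60) within 1 kb, 2.73 (2.44 to 3.00) at more than 1 to 5 kb, 2.04 (1.90 to 2.32) at more than 5 to 50 kb and 2.12 (1.95 to 2.59) beyond. Kept islands had 2.60 (2.50 to 2.72), 2.06 (2.01 to 2.15), 2.03 (1.97 to 2.08) and 2.25 (2.19 to 2.25) over the same steps, so fold was highest close to another island in both classes and, among kept islands, higher beyond 50 kb than at 5 to 50 kb. Input per kb of kept islands was 7.14 within 1 kb and 11.2 in both far steps.

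**Figure D3:**
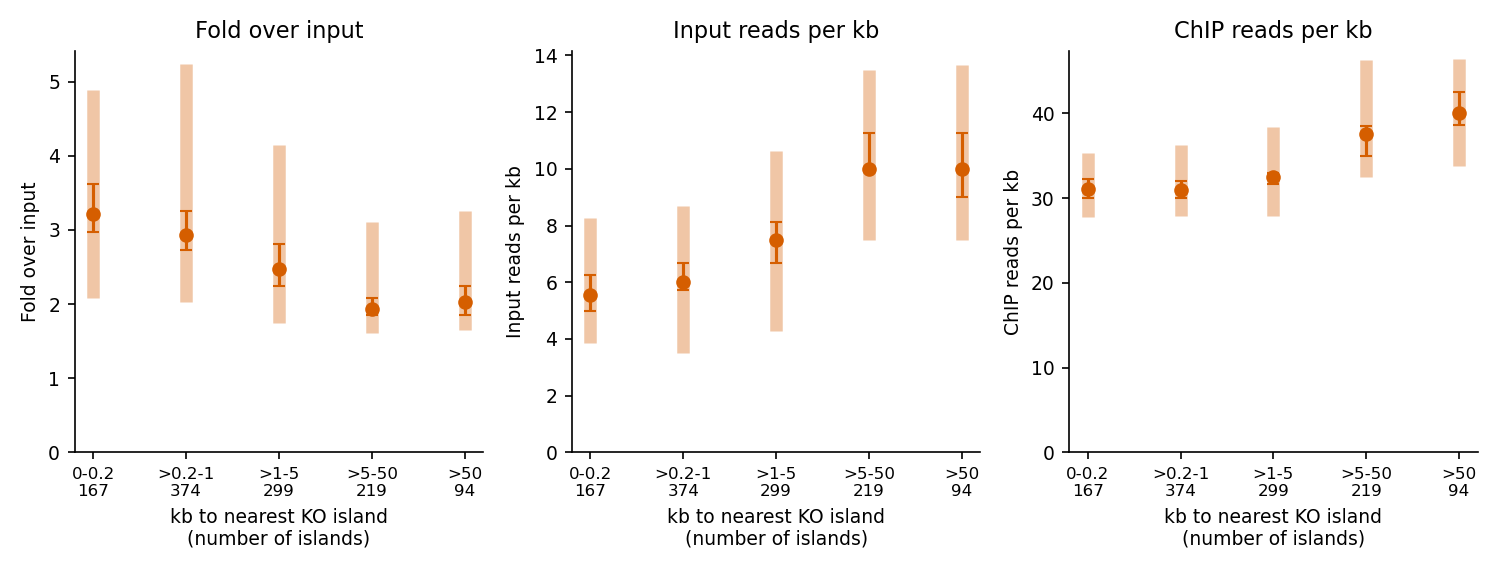
Fold over input, input reads per kb and ChIP reads per kb of the 1153 WT-only islands, by distance to the nearest KO H3K4me3 island in kb. Points are medians with 95% rank-based intervals and bars span the quartiles; fold falls from 3.21 to about 2 while input per kb rises from 5.56 to 10.

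Over all members the median fold was 2.58 (2.44 to 2.72), below the 3.07 (3.04 to 3.11) of kept islands, but under 50 reads the order was the opposite. There, members had a median of 2.70 (2.53 to 2.89) and kept islands 2.25 (2.19 to 2.25). At 15 to 24 reads the medians were 3.84 (3.09 to 4.12) and 2.59 (2.47 to 2.70), at 25 to 34 reads 2.73 and 2.25, and at 35 to 49 reads 2.44 (2.19 to 2.60) and 2.19 (2.14 to 2.20). Above that members were lower, with 2.05 (1.81 to 2.46) and 2.13 (2.07 to 2.17) at 50 to 74 reads, 1.98 and 2.15 at 75 to 99 and 1.99 and 2.24 at 100 to 200. From 35 reads upward the intervals overlapped. Input per kb was lower in members than in kept islands in each of these bins, for example 7.32 (6.67 to 7.86) against 10 at 35 to 49 reads, up to 74 reads without overlap of the intervals. At 50 to 74 reads members were also wider, 1800 bp against 1400, and less dense in ChIP reads, 32.2 per kb (31.2 to 33.9) against 43.1 (42.5 to 43.8).

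A fold of 2 or more was reached by 747 members (64.8%), against 75.1% of all 23828 islands. An adjusted p-value of 1e-05 or lower, as deposited by the authors for ChIP against input reads, was reached by 667 (57.8%), against 79.0%. Under 50 reads the order was the opposite, with a fold of 2 in 67.5% of members and 59.8% of kept islands and an adjusted p-value of 1e-05 in 57.4% and 48.5%. When counting error of the input was included, the interval of the fold reached down to 1 or lower in 428 members (37.1%, 34.3 to 40.0%). This was so for 141 of 541 within 1 kb of a KO island (26.1%, 22.4 to 30.0%) and for 160 of 313 beyond 5 kb (51.1%, 45.4 to 56.8%). Under 50 reads it was 38.6% of members (35.5 to 41.8%) and 46.6% of kept islands (45.3 to 48.0%).

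The 5 highest folds among members with 50 or more reads lay within 2 kb of a KO island and rested on at most 3 input reads. On chromosome 2, 79471801 to 79473600 held 51 ChIP reads and no input read. Its deposited fold of 115 uses 0.25 in place of 0 input reads, and against the limit of 3 reads that a count of 0 allows the fold was at least 9.55. It lay 600 bp from a KO island of 676 reads. On chromosome 3, 89806801 to 89809800 held 99 ChIP and 3 input reads over 3 kb, a fold of 18.5 with an interval of 6.16 to 91.5, and it also had the lowest deposited adjusted p-value, 1.11e-87.

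The next in order were chromosome 8, 112299001 to 112300600, with 56 ChIP reads and 10.5-fold (3.41 to 52.4), chromosome 4, 10788601 to 10790600, with 55 reads and 10.3-fold (3.35 to 51.5), and chromosome 10, 84592801 to 84594800, with 52 reads and 9.74-fold (3.15 to 48.8). All 3 had 3 input reads and a KO island 200 to 600 bp away. Among the 5 lowest adjusted p-values were 3 islands of 36 ChIP and 0 input reads, at chromosome 7, 6278201 to 6279400, chromosome 1, 44163201 to 44164000, and chromosome 16, 59469601 to 59471000, each at least 6.74-fold. They lay 1000, 1400 and 200 bp from KO islands of 481, 921 and 583 reads. In all, 27 members had no input read and 204 had 1 to 3. With the former set at their limit the median fold of all members was 2.58, as before.

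The widest members were of mixed kind. On chromosome 9, 75623201 to 75627400, the widest at 4.2 kb, held 133 ChIP and 19 input reads, a fold of 3.93 (2.42 to 6.74), 39.6 kb from a KO island. On chromosome 2, 117161201 to 117164400 held 135 and 49 reads, a fold of 1.55 (1.11 to 2.19), and lay 800 bp from a H3K27me3 island. On chromosome 5, 14539601 to 14542800 held 100 and 46 reads, a fold of 1.22 whose interval, 0.854 to 1.77, spanned 1. The islands on chromosome 1 at 64348801 and chromosome 3 at 89806801, given above, complete the 5.

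Among members with 50 or more reads, the 5 farthest from KO H3K4me3 had folds of 1.36 to 2.58. The farthest from a KO island was at chromosome 5, 45189001 to 45191600, 567.4 kb away, with 78 ChIP and 17 input reads and a fold of 2.58 (1.51 to 4.65). The next, at chromosome 16, 93006401 to 93007200, was 306 kb away, with 51 and 21 reads and a fold of 1.36 (0.807 to 2.39). At chromosome 9, 43261601 to 43262800, 212.6 kb from a KO island, the fold was 1.42 (0.841 to 2.48), and a H3K27me3 island lay 400 bp away. At chromosome 5, 45669001 to 45670600, it was 1.84 (1.07 to 3.32), and at chromosome 9, 47510801 to 47512200, 1.69 (1.00 to 2.95).

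The absence of a KO call is given here beside the reads of WT islands and of KO calls, and its cause was not tested. The share of WT islands that were WT-only fell with reads, from 21.4% at 15 to 24 (18.3 to 24.9%, 134 of 625) and 18.8% at 25 to 34 to 12.3% at 35 to 49, 5.17% at 50 to 74, 1.68% at 75 to 99 and 0.508% at 100 to 200 (0.285 to 0.837%, 15 of 2950). Above 200 reads there were 10177 kept islands and 0 members. Width rose over the same bins, from a median of 400 bp at 15 to 24 reads to 2600 bp at 100 to 200 among members. A wider island can more easily overlap a KO island by 1 bp. The WT-only share was 20.2% at a width of 200 bp, 12.3% at 1000 bp and 0.716% at 3000 bp. The fall with reads is thus also a fall with width. At a width of 1000 bp, the most frequent among members with 214, members had a median of 31 ChIP reads and kept islands 41, while KO islands of that width had a lowest value of 25 reads, a 5th percentile of 31 and a median of 42. At 2000 bp the 35 members had a median of 57 reads, kept islands 94, and KO islands a lowest value of 39 and a median of 87.

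Set against KO islands of their own width, 727 members (63.1%, 60.2 to 65.8%) had fewer reads than the lower quartile, and 350 (30.4%) fewer than the 5th percentile. Only 16 were below every KO island of their width. Among kept islands under 50 reads, 40.6% (39.3 to 42.0%) were below the lower quartile. Reads are not scaled between the libraries, since their total depth is not in the lists. The 115 members (9.97%) at or above the KO median of their width were mostly isolated, with 67 beyond 5 kb and 17 within 1 kb of a KO island. Their median fold was 1.97 (1.81 to 2.30), with 14.5 input reads per kb (12.5 to 15.7). The median input was 7.5 reads per kb over all members and 12.3 over all kept islands.

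**Figure D4:**
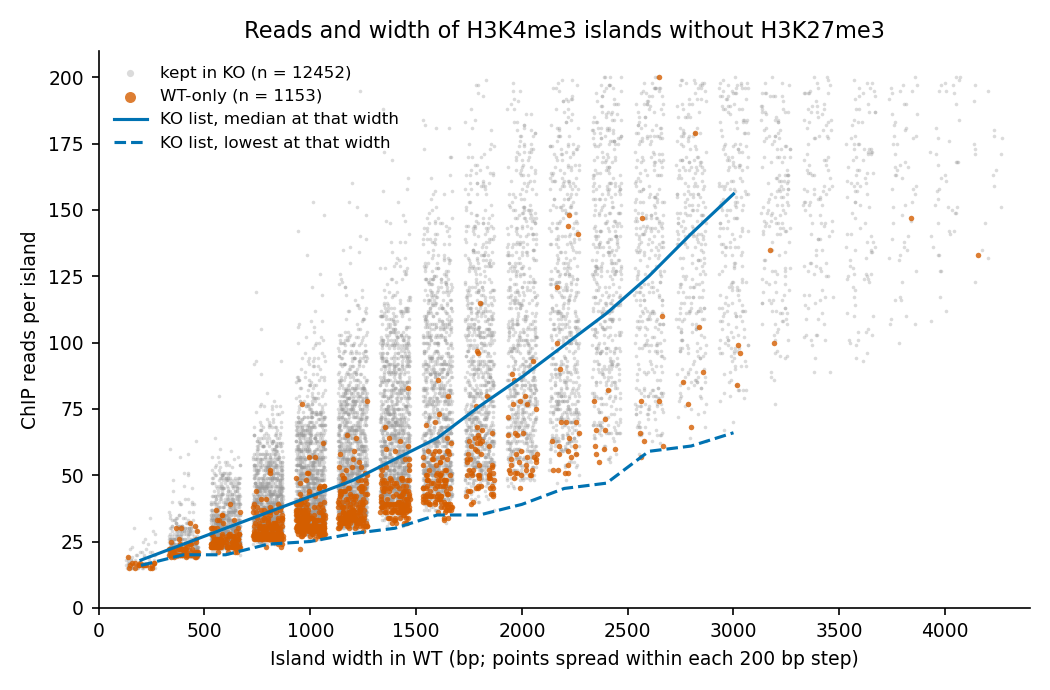
ChIP reads against width of autosomal WT H3K4me3 islands without H3K27me3, for the 1153 WT-only islands (orange) and for kept islands of up to 200 reads and 4.2 kb (grey); lines give the median and the lowest reads of KO islands of each width up to 3000 bp. Most WT-only islands lie between the 2 lines, and 115 lie at or above the median of their width.

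The opposite class, KO H3K4me3 islands with no WT island and no H3K27me3, was larger and lay elsewhere. It numbered 15407, or 43.2% of 35673 autosomal KO islands without H3K27me3. Its medians were 47 reads (46 to 47), 1200 bp and 2.34-fold over input (2.32 to 2.36), with 12.5 input reads per kb against 7.5 in the WT-only islands. Read counts were not scaled between the lists, whose libraries differ. Of these KO-only islands, 1423 (9.24%, 8.78 to 9.70%) lay within 1 kb of a WT H3K4me3 island and 30.4% within 5 kb, against 46.9% and 72.9% of WT-only islands measured to the KO list. The KO list covers more of the genome, 147.5 Mb against 101.4 Mb, so the 2 measures are not alike, and with the KO list cut as above the share of WT-only islands within 1 kb was 27.4%. Measured within their own list, 26.0% of KO-only islands (25.3 to 26.7%) and 42.3% of WT-only islands (39.5 to 45.2%) lay within 1 kb of another island. The fold of KO-only islands within 200 bp of a WT island was 2.23 (2.15 to 2.35), and beyond 50 kb 2.86 (2.80 to 2.91), so it was higher far from WT islands, where that of WT-only islands was lower.

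**Figure D5:**
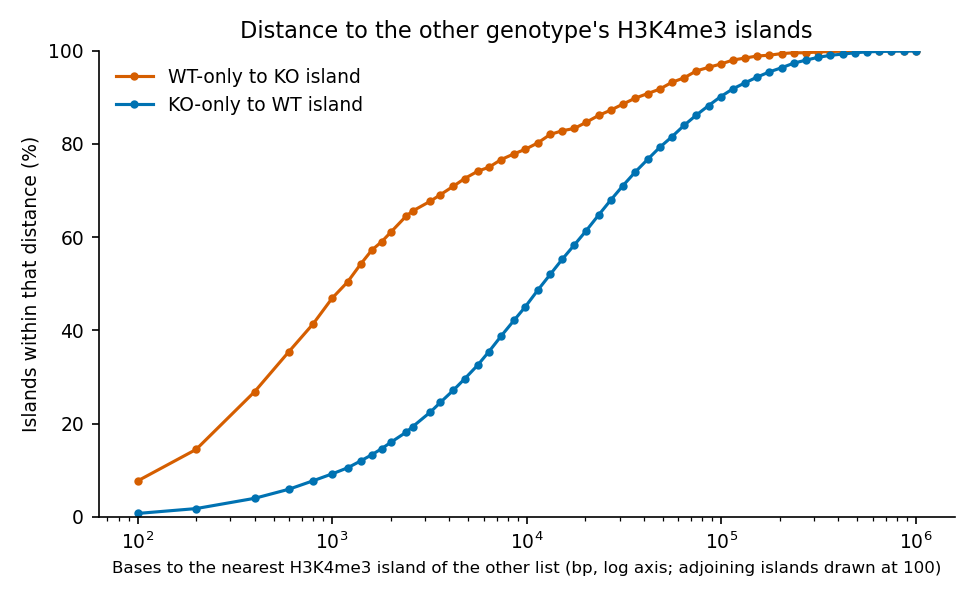
Cumulative share of the 1153 WT-only islands by distance to the nearest KO H3K4me3 island (orange), and of the 15407 KO-only islands by distance to the nearest WT H3K4me3 island (blue), on a log axis in bp. Within 1 kb lie 46.9% of the former and 9.24% of the latter.

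H3K27me3 was rarely near. The nearest H3K27me3 island of either genotype was within 1 kb for 29 members (2.52%, 1.69 to 3.59%) and within 5 kb for 62 (5.38%, 4.15 to 6.84%), with a median distance of 126.6 kb. For kept islands under 50 reads the shares were 1.36% (1.06 to 1.71%) and 3.46% (2.97 to 4.00%). Islands on H3K27me3 were removed by the rule in both classes.

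Members were spread over every autosome. They were 3.79% of the islands without H3K27me3 on chromosome 15 (2.72 to 5.12%, 40 of 1056), the lowest share, and 6.75% on chromosome 13 (5.32 to 8.42%, 72 of 1067), the highest, with intervals that did not overlap. Among islands under 50 reads the shares ran from 12.6% on chromosome 18 (8.05 to 18.4%) to 22.6% on chromosome 17 (18.0 to 27.8%). The interval of chromosome 17 overlapped that of chromosome 18 but lay above those of chromosomes 4, 1, 3 and 5, for example 9.92 to 16.5% on chromosome 4. Chromosomes 15, 13, 18 and 17 were picked as the extremes of all autosomes. The intervals take no account of that choice, and a difference between chromosomes was not tested. On chromosome 17, 48 of 74 members lay within 1 kb of a KO island, and on chromosome 3, 22 of 66.

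Most members had no other member close by, although 69.5% lay within 5 kb of another WT H3K4me3 island. Members were 4.84% of the autosomal WT islands without H3K27me3, and no other class was counted in this way. With 10 kb or less allowed between neighbours, 1040 had no other member beside them, 104 formed 52 pairs and 9 formed 3 runs of 3. At chromosome 17, 35124001 to 35131200, the run held 122 ChIP and 24 input reads, a fold of 2.86 (1.83 to 4.63), with no other WT or KO island inside it. Its members lay 0 to 2200 bp from a KO H3K4me3 island outside the run. At chromosome 6, 83832601 to 83843800, the run held 112 and 37 reads, a fold of 1.70 (1.16 to 2.54), again with no other island inside. Its members lay 2200 to 12400 bp from a KO island. At chromosome 7, 6278201 to 6294200, the 3 members held 102 and 8 reads, a fold of 7.17 (3.50 to 17.0), and stood around 3 other WT islands and 1 KO island of 481 reads.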

How the data were processed

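The 4 ChIP libraries of the series' 10 samples were used; input and nuclease libraries have no island list of their own here. Per the submitters' processing notes, reads were aligned with Bowtie (version not given) and islands called with SICER 1.1 on mm9. Their names state windows of 200 bp, gaps of 200 bp for H3K4me3 or 600 bp for H3K27me3, and an FDR of 0.05. How reads were filtered is not given in the sources used here. The authors' lists hold, per island, raw ChIP and control read counts, a p-value with its adjusted value, and a fold ratio of ChIP over control reads. Tested on the files, the deposited fold equals ChIP over control reads times 0.562 in the WT H3K4me3 list and 0.743 in the KO list, with 0.25 for a control count of 0. Depth outside islands is unknown.

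Starts and ends were raised by 1. Overlap of 1 bp counted as shared; distances are bases between islands. Intervals are 95%: exact binomial for shares, rank-based for medians, exact conditional binomial for folds. They cover counting error or treat islands as independent, never the spread between libraries; PCR duplicates may remain. No test between genotypes was made, since each has 1 library per mark.

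The class and lists were chosen with earlier results of these data known. Named islands are the 5 members with most reads, highest fold (50 or more reads), greatest width, lowest adjusted p-value and greatest distance from a KO island (50 or more reads), those nearest the overlap threshold, and the longest runs. Genes, annotation and sequence of the islands were not analysed here, since the reference tables are of another build. Python 3.11.15, numpy 2.4.6, pandas 2.3.3, scipy 1.17.1 and matplotlib 3.10.9 were used. Classification was tested on simulated lists, and bedtools 2.31.1 gave the same 1153 members.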

Additional observations from a re-analysis of the deposited data

How the results depend on the processing

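Of 66 recalculations, 30 stayed within the interval or within 1.5 times the count, 34 moved and 2 reversed a ratio; the causes were not tested, except that stricter rules shorten a list. The shares within 1 kb and the near to far fold ratio, and comparisons under 50 reads, were added after the data were seen. The number of members was 675 at 1 kb or more from a KO island, 667 at an adjusted p-value of 1e-05, 747 at a fold of 2 and 2682 with the KO list cut to the length of the WT list. The median reads moved to 36 with a 50% overlap and 33 at a fold of 2. The median fold was 2.25 at 1 kb or more, 3.93 at 1e-05, 3.65 at a fold of 2, 2.18 with KO islands at 1e-05 and 2.32 with the cut KO list. The share within 5 kb of a KO island was 78.5% with 50% overlap, 53.6% at 1 kb or more, 80.2% at 1e-05, 79.8% at a fold of 2, 63.3% with KO islands at 1e-05, 47.2% with the cut KO list and 67.7% without use of H3K27me3. The share within 1 kb was 57.9%, 9.33%, 56.2%, 55.2%, 38.3%, 27.4% and 42.4% in the same order. The setting of 1 kb or more removes nearer islands, so its 9.33% are islands exactly 1 kb from a KO island. With 50% overlap, islands that overlap a KO island by less become members. They count as within 1 kb and within 5 kb, which raises both shares by construction. The ratio of the members' median fold to that of kept islands, 0.840, was 0.732 at 1 kb or more, 0.944 at a fold of 2, 0.700 with KO islands at 1e-05 and 0.736 with the cut KO list, and reversed to 1.06 at 1e-05 and to 1.20 among islands under 50 reads. The ratio of fold within 1 kb to beyond 5 kb, 1.57, was 1.43 with 50% overlap, 1.17 at 1e-05, 1.20 at a fold of 2, 1.46 with KO islands at 1e-05 and 1.30 with the cut KO list. It stayed above 1 under each alternative run. At 1 kb or more, however, its near group held only islands exactly 1 kb away. With 50% overlap the near group included islands that overlap a KO island. No paired analysis was possible because each genotype and mark has 1 library. An absent KO call near the read limit does not show that the mark was lost.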

Other observations

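On the X chromosome, which the rule leaves out, 23 of 1062 WT H3K4me3 islands without H3K27me3 had no KO island (2.17%, 95% exact interval 1.38 to 3.23%). They held 20 to 60 reads, with a median of 30. Their median fold of 5.62 (range 1.47 to 45.0) was above the 2.58 of the autosomal members, with 5 input reads per kb against 7.5. Kept X islands were not summarised, so whether these values set the 23 apart on X was not tested. Of the 23, 6 lay within 1 kb of a KO island and 8 more than 50 kb from any. On Y, 0 of 10 such islands lacked a KO island.

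Another 285 autosomal WT H3K4me3 islands had no KO H3K4me3 island but overlapped H3K27me3 in WT or KO. Their median was 38 ChIP reads (36 to 40), 1200 bp and 2.76-fold over input (2.46 to 3.04), close to the members' values, while their upper range was far wider, up to 1084 reads and 11200 bp.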
